A study of Homo sapiens with 7 samples.

Results

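The comparison described here sets the Combination against 5-Aza-CdR alone in HCT116, a human colon carcinoma line, and asks whether the Combination adds new copies of endogenous retroviruses to the double-stranded RNA or more reads at copies already read after 5-Aza-CdR. Libraries were chosen by their treatment label: 4 of the 7 libraries of the series carry the labels Combination or 5-Aza-CdR, 1 of each in both of the workbooks that hold the counts, called set 1 and set 2. RNA bound by J2, an antibody to double-stranded RNA, was recovered from lysates digested with RNase T1, which cuts single-stranded RNA, and was sheared and sequenced as small RNA libraries.

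The groups used are the Combination (n = 2, 1 library in each set), 5-Aza-CdR (n = 2, 1 in each set) and, as background, Vc (1 library, set 2) and PBS (n = 2, 1 in each set). All are of the same cell line and carry no genetic change named in the labels. The treatment protocol names 0.3 µM of 5-Aza-CdR, with new medium after 24 h and culture to day 5; neither a dose of Vc nor the make-up of the Combination is in the labels. The paper of the study uses Vc for vitamin C, and its Combination pairs vitamin C with 5-Aza-CdR. Nothing says that the libraries sharing a label were made from different cultures, so p-values measure only the spread between these libraries, which may be technical. Paired differences over 2 sets cannot give an exact two-sided permutation p below 0.5, and values within a set are therefore given without a test.

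5-Aza-CdR (5-aza-2'-deoxycytidine) traps DNA methyltransferases, so that methylation is lost as cells divide, and repeats kept silent by methylation can be transcribed. Vitamin C is a cofactor of the TET enzymes, which oxidise methylated cytosine. Endogenous retroviruses are remnants of old infections, an internal region between a pair of long terminal repeats (LTRs) or, more often, a single LTR left behind, and LTRs carry promoters. LTR12C is the LTR of HERV-9, a primate retrovirus group, and is present in many copies. Transcripts of such repeats can pair with transcripts of the opposite strand, and double-stranded RNA is a ligand of innate immune sensors such as MDA5.

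Set 1 gave 14235 locus reads for the Combination, 11477 for 5-Aza-CdR and 23026 for PBS, over 703138 annotated copies. Set 2 gave 32311 for the Combination, 23431 for 5-Aza-CdR, 18434 for Vc and 19358 for PBS. Between 70.2% and 77.3% of the loci read in the 4 libraries held a single read. Left out of these totals, though not of the joint fit of loci, were 2 copies that held over 10% of the locus reads of a library: HERVE_a-int at chr6:4428317-4428782 (hg19) and MER11B at chr3:15779666-15780942, which together took 71.9% of Combination and 70.6% of 5-Aza-CdR locus reads in set 1, and 0.284% of Combination and 0.412% of 5-Aza-CdR locus reads in set 2. Intervals below are 95% intervals and hold for counting error alone, as reads copied by PCR and carrying no molecular identifier do not each stand for a molecule.

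At equal depth the Combination was not read at more repeat copies as a whole, but was read at more copies of LTR12C. Both libraries of a set were brought to the smaller of their totals, taking the expected number of loci that keep a read when reads are drawn without replacement. Over all copies, the Combination of set 1 had reads at 7825 loci and 5-Aza-CdR at 7521, a ratio of 1.04. In set 2 the Combination had reads at 11670 loci and 5-Aza-CdR at 12328, a ratio of 0.947. Before depth was made equal both sets had more loci with reads in the Combination: 9265 in the Combination against 7521 in 5-Aza-CdR for set 1 (ratio 1.23), and 14657 in the Combination against 12328 in 5-Aza-CdR for set 2 (ratio 1.19). The direction at equal depth thus differed between the sets, and it also turned with the number of reads asked of a locus: with at least 2 reads per locus the ratio was 0.933 in set 1 and 1.02 in set 2.

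LTR12C went the same way in both sets. Of 2656 LTR12C copies, 987 (37.2%) were read in the Combination and 744 (28.0%) in 5-Aza-CdR at equal depth in set 1, a ratio of 1.33. In set 2 the numbers were 1497 (56.4%) in the Combination and 1368 (51.5%) in 5-Aza-CdR, a ratio of 1.09. The differences were 243 and 129 copies. The SD of the Combination number over such draws, 9.71 in set 1 and 10.9 in set 2, holds the error of drawing reads from that library and not the spread between libraries, so it is no test of the difference. PBS at the same depth in set 1 had reads at 70.04 LTR12C copies, and PBS of set 2, with its smaller total left as it was, at 520.

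**Figure D1:**
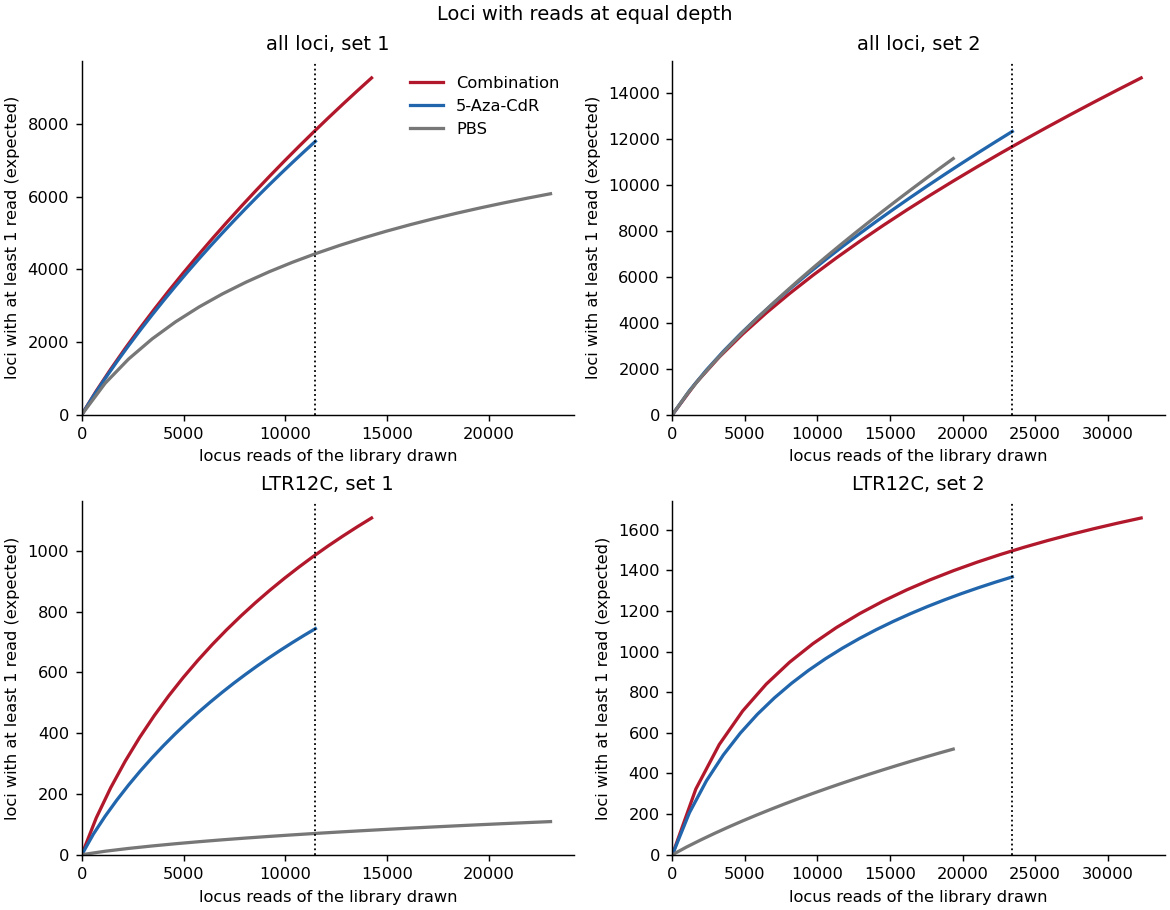
Expected number of loci with at least 1 read (vertical axis) when a library is cut to a given number of locus reads (horizontal axis), for all loci and for LTR12C in each set; the dotted line marks the 5-Aza-CdR total. At the line the Combination and 5-Aza-CdR lie close over all loci (ratios 1.04 and 0.947), and the Combination lies higher for LTR12C (1.33 and 1.09).

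The families outside the LTR12 and HERV9 group showed no such excess. Their loci with reads numbered 6563 in the Combination and 6544 in 5-Aza-CdR for set 1 (ratio 1.003). For set 2 they numbered 9653 in the Combination and 10560 in 5-Aza-CdR (ratio 0.914). Their total was also lower, 8720 reads in the Combination against 9363 in 5-Aza-CdR of set 1 and 16105 in the Combination against 17498 in 5-Aza-CdR of set 2, which follows at a fixed depth from the larger LTR12 share. At equal reads within these families the ratio of loci was 1.06 in set 1 and 0.975 in set 2.

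The LTR12C ratio was larger when up to 5 reads were asked of a copy. With at least 3 reads, 223 copies passed for the Combination and 138 for 5-Aza-CdR in set 1 (ratio 1.62). In set 2, 707 passed for the Combination and 595 for 5-Aza-CdR (ratio 1.19). With at least 5 reads, 90.2 copies passed for the Combination and 43 for 5-Aza-CdR in set 1 (ratio 2.10), and 405 for the Combination and 313 for 5-Aza-CdR in set 2 (ratio 1.30). With at least 10 reads few copies were left: 20.05 for the Combination and 15 for 5-Aza-CdR in set 1 (ratio 1.34), and 133 for the Combination and 96 for 5-Aza-CdR in set 2 (ratio 1.38). When both libraries were instead cut to the same number of LTR12C reads, 845 copies were read for the Combination and 744 for 5-Aza-CdR in set 1 (ratio 1.14, at 1788 reads). In set 2 these were 1393 for the Combination and 1368 for 5-Aza-CdR (ratio 1.02, at 5130 reads). This alternative was added after seeing the data; most of the difference in the number of LTR12C copies was thus no longer present once the difference in LTR12C reads was taken out.

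The added LTR12C reads fell both at copies without a 5-Aza-CdR read and at copies with one, in different proportions in the 2 sets. At equal depth in set 1 the Combination had 2334 LTR12C reads and 5-Aza-CdR 1788, a difference of 546. Of these, 132 lay at copies read in both libraries and 414 at copies read in 1 library alone, as the reads of Combination-only copies less those of 5-Aza-CdR-only copies. In set 2 the Combination had 6276 and 5-Aza-CdR 5130, a difference of 1146, of which 880.2 lay at shared copies and 266 at unshared ones.

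Reads can miss a copy by chance, and the mirror count, of copies read in 5-Aza-CdR alone, is the level to read the new copies against. At equal depth in set 1, 549 LTR12C copies were read in the Combination alone, 306 in 5-Aza-CdR alone and 438 in both. In set 2, 400.0 were read in the Combination alone, 271 in 5-Aza-CdR alone and 1097 in both. New copies held 34.9% of the LTR12C reads of the Combination in set 1 (Wilson interval 33.2 to 36.6) and 10.4% in set 2 (9.76 to 11.05). The mirror share, of 5-Aza-CdR reads at copies with no Combination read at the same depth, was 22.4% in set 1 and 7.52% in set 2. In the deeper set 2, the share of reads at unshared copies was thus smaller in both libraries.

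**Figure D2:**
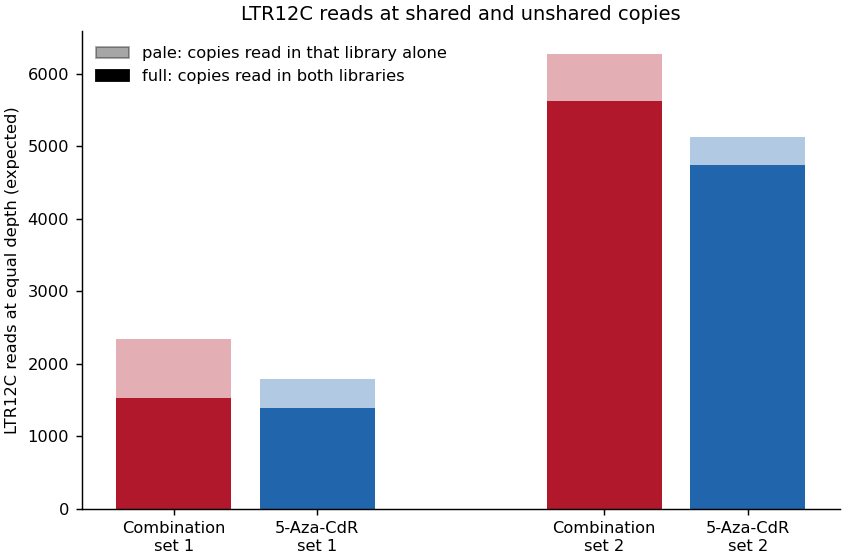
Expected LTR12C reads at equal depth (vertical axis) in the Combination and 5-Aza-CdR of each set; the full colour marks copies read in both libraries of the set and the pale colour copies read in that library alone, without error bars since each bar is 1 library. Reads at shared copies numbered 1520 for the Combination and 1388 for 5-Aza-CdR in set 1, and 5624 for the Combination and 4744 for 5-Aza-CdR in set 2.

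The other set gives a measure of these copies that the class itself did not use. LTR12C copies classed by the reads of set 1 were measured in set 2, as reads in the Combination over reads in 5-Aza-CdR per locus read. The 632 copies that set 1 had read in the Combination alone gave 2113 Combination and 1220 5-Aza-CdR reads in set 2, a ratio of 1.26 (1.17 to 1.35). The 476 copies that set 1 had read in both libraries gave 4541 Combination and 2710 5-Aza-CdR reads, a ratio of 1.22 (1.16 to 1.28). The 268 copies read in 5-Aza-CdR alone gave 725 Combination and 434 5-Aza-CdR reads, a ratio of 1.21 (1.07 to 1.37). The 1280 copies with no read in either gave 1276 Combination and 766 5-Aza-CdR reads, a ratio of 1.21 (1.10 to 1.32). All 4 classes lay above 1 with overlapping intervals: copies that looked new in one set were not set apart in the other, and copies that had looked specific to 5-Aza-CdR were also higher in the Combination. The copies read in the Combination alone in set 1 were also not unread in 5-Aza-CdR of set 2, where reads in the Combination lay at 474 of the 632 (75.0%) and reads in 5-Aza-CdR at 399 (63.1%).

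Classed by set 2 and measured in set 1, LTR12C copies gave 1.38 (1.12 to 1.71) where the Combination alone had reads, 1.37 (0.946 to 2.01) where 5-Aza-CdR alone had reads and 1.55 (1.44 to 1.66) where both had. Copies with no read in set 2 gave 0.645 (0.559 to 0.743), a value that rested on 2 copies. An LTR12C copy at chr18:9296674-9298314 had 136 reads in the Combination, 205 in 5-Aza-CdR and 34 in PBS of set 1, and 0 in all libraries of set 2. Another at chr7:22129778-22131305 had 45 reads in the Combination, 138 in 5-Aza-CdR and 7 in PBS of set 1 and again 0 in set 2. Without the 58 loci that held at least 20 reads in the Combination and 5-Aza-CdR of one set and 0 in those of the other, 5 of them LTR12C, the ratio of the copies unread in set 2 was 1.39 (1.08 to 1.79), an alternative added after seeing the data. With these loci left out, LTR12C as a whole stood at 1.51 (1.42 to 1.62) per locus read in set 1 and 1.23 (1.18 to 1.27) in set 2.

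The families outside the LTR12 and HERV9 group gave lower ratios in the same classes. They ran between 0.891 and 1.05 when measured in set 2 and between 0.830 and 0.974 when measured in set 1. Their copies read in the Combination alone in set 1 stood at 1.003 (0.939 to 1.07) in set 2, and those read in the Combination alone in set 2 at 0.974 (0.886 to 1.07) in set 1. Per locus read, copies of these families that appeared new in one set thus had about as many reads in the Combination of the other set as in its 5-Aza-CdR library.

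**Figure D3:**
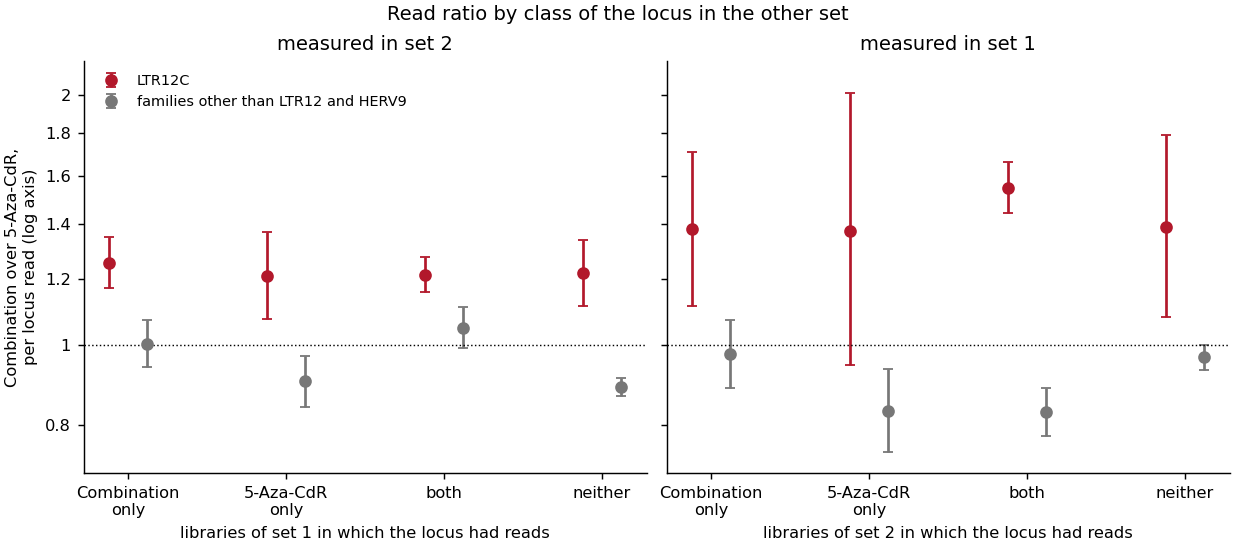
Ratio of Combination to 5-Aza-CdR reads per locus read (vertical axis, log scale, bars are 95% exact conditional binomial intervals) for loci classed by the libraries of the other set in which they had reads (horizontal axis), without the 58 loci read in 1 set. LTR12C lies above 1 in all 8 classes, with one interval reaching below 1, and the families other than LTR12 and HERV9 lie between 0.830 and 1.05.

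The ratio did not follow the read number of a copy after 5-Aza-CdR in the same way in both sets. LTR12C copies grouped by their 5-Aza-CdR reads in set 1 gave ratios in set 2 of 1.24 (1.18 to 1.32) at 0 reads, 1.11 (1.03 to 1.19) at 1 read, 1.35 (1.25 to 1.46) at 2 to 3, 1.31 (1.17 to 1.48) at 4 to 7 and, on 15 copies, 1.10 (0.966 to 1.24) at 8 or more. Grouped by set 2 and measured in set 1, the ratios were 1.38 (1.18 to 1.63), 1.26 (1.06 to 1.51), 1.52 (1.30 to 1.77), 1.73 (1.50 to 1.99) and 1.56 (1.39 to 1.75). These groups, and the splits of LTR12C that follow, leave out the loci read in 1 set. With that omission, made after seeing the data, every group of copies lay above 1 in both directions. The left-out LTR12C copies on chromosomes 7 and 18 had 0 reads in set 2, and 181 Combination and 343 5-Aza-CdR reads in set 1. The group with 0 reads in set 2 had 415 and 242 reads in set 1 without them, and would lie below 1 with them kept.

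With the loci read in 1 set left out, higher LTR12C reads in the Combination were spread over the genome and over kinds of copy. Of 24 chromosomes, LTR12C reads were above a ratio of 1 on 22 in both sets. Chromosome 21 stood at 0.979 in set 1 and chromosome 22 at 0.923 in set 2. This omission, made after seeing the data, matters on chromosomes 7 and 18. On chromosome 7 of set 1 the other copies had 122 Combination and 66 5-Aza-CdR reads, and the left-out copy 45 and 138. On chromosome 18 the other copies had 74 and 33, and the left-out copy 136 and 205. With the left-out copies kept, both chromosomes would lie below 1 in set 1. Copies of at least 1400 bases gave 1.53 (1.42 to 1.65) in set 1 and 1.24 (1.19 to 1.29) in set 2, and copies of 1000 to 1399 bases 1.46 (1.29 to 1.66) and 1.20 (1.12 to 1.28). Copies under 500 bases gave 1.61 (0.969 to 2.75) on 48 Combination and 24 5-Aza-CdR reads in set 1, and 0.982 (0.749 to 1.29) on 130 Combination and 96 5-Aza-CdR reads in set 2. Copies on the plus strand gave 1.56 in set 1 and 1.20 in set 2, and copies on the minus strand 1.48 in set 1 and 1.25 in set 2, with overlapping intervals in each set. Copies with no PBS read in the set gave 1.54 (1.43 to 1.65) in set 1 and 1.27 (1.22 to 1.33) in set 2, and copies with PBS reads 1.39 (1.17 to 1.65) and 1.16 (1.10 to 1.23). The left-out copies on chromosomes 7 and 18 both lie on the plus strand and had PBS reads in set 1. Together they had 181 Combination and 343 5-Aza-CdR reads there. Copies with PBS reads had 374 and 217 without them, and would lie below 1 in set 1 with them kept. The plus strand had 1322 and 685 without them, so its 1.56 would be lower. Its overlap with the minus strand was not computed with them kept.

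Few single copies were new in both sets. Reads in the Combination of both sets and in neither 5-Aza-CdR library were found at 694 loci, against 336 in the opposite arrangement, before depth was made equal. At equal depth the expected numbers were 459 in the Combination alone and 414 in 5-Aza-CdR alone, so most of the excess over all loci was not present at equal depth. LTR12C had 119 copies in the Combination alone against 22 in 5-Aza-CdR alone before, and 86.8 in the Combination alone against 34.7 in 5-Aza-CdR alone at equal depth. The other families had 341 in the Combination alone and 362 in 5-Aza-CdR alone at equal depth. At least 2 reads in each Combination library were held by 52 of the 694 loci, 25 of them LTR12C, and at least 2 in each 5-Aza-CdR library by 15 of the 336, none of them LTR12C. Those 25 and 0 are counts before depth was made equal. The median length of the 119 LTR12C copies was 1427 bases.

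Of the 10 such copies with the most reads, 5 were LTR12C. An LTR12C copy at chr11:14612432-14613816 had 5 Combination reads in set 1 and 6 in set 2. One at chr4:128300908-128302782 had 4 and 20 Combination reads, with 2 in Vc. Those at chr4:184402977-184404381 (3 and 7 reads), chr9:122631621-122633125 (3 and 6) and chr1:180477568-180478949 (4 and 2) had 1 or 2 reads in PBS of set 2. All 5 had 0 reads in both 5-Aza-CdR libraries and in PBS of set 1. The remaining 5 of the 10 were an LTR12D copy at chr1:187519453-187520585 (3 and 2 reads), an MLT1C copy at chr14:92762617-92763052 (3 and 7), an MER57B1 copy at chr11:57549838-57550215 (4 and 3), an MLT2B2 copy at chr2:7052844-7053300 (2 and 3) and an LTR7 copy at chr1:68851687-68852120 (3 and 3), which had 23 reads in PBS of set 1. In set 2 the LTR7 copy had 4 Vc reads and 1 PBS read, and the MER57B1 copy 3 Vc and 2 PBS reads. The LTR12D and MLT2B2 copies each had 1 PBS read in set 2. The MLT1C copy had 0 reads in PBS and Vc. A count of 0 in 5-Aza-CdR allows up to 3 reads, which 2 of the 10 copies, those on chromosome 11 of LTR12C and on chromosome 4 from 128300908, exceeded in both Combination libraries. This is no test that they are new. The copies were picked for 0 reads in 5-Aza-CdR and ranked by their Combination reads. The bound also makes no allowance for the larger read totals of the Combination libraries.

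**Figure D4:**
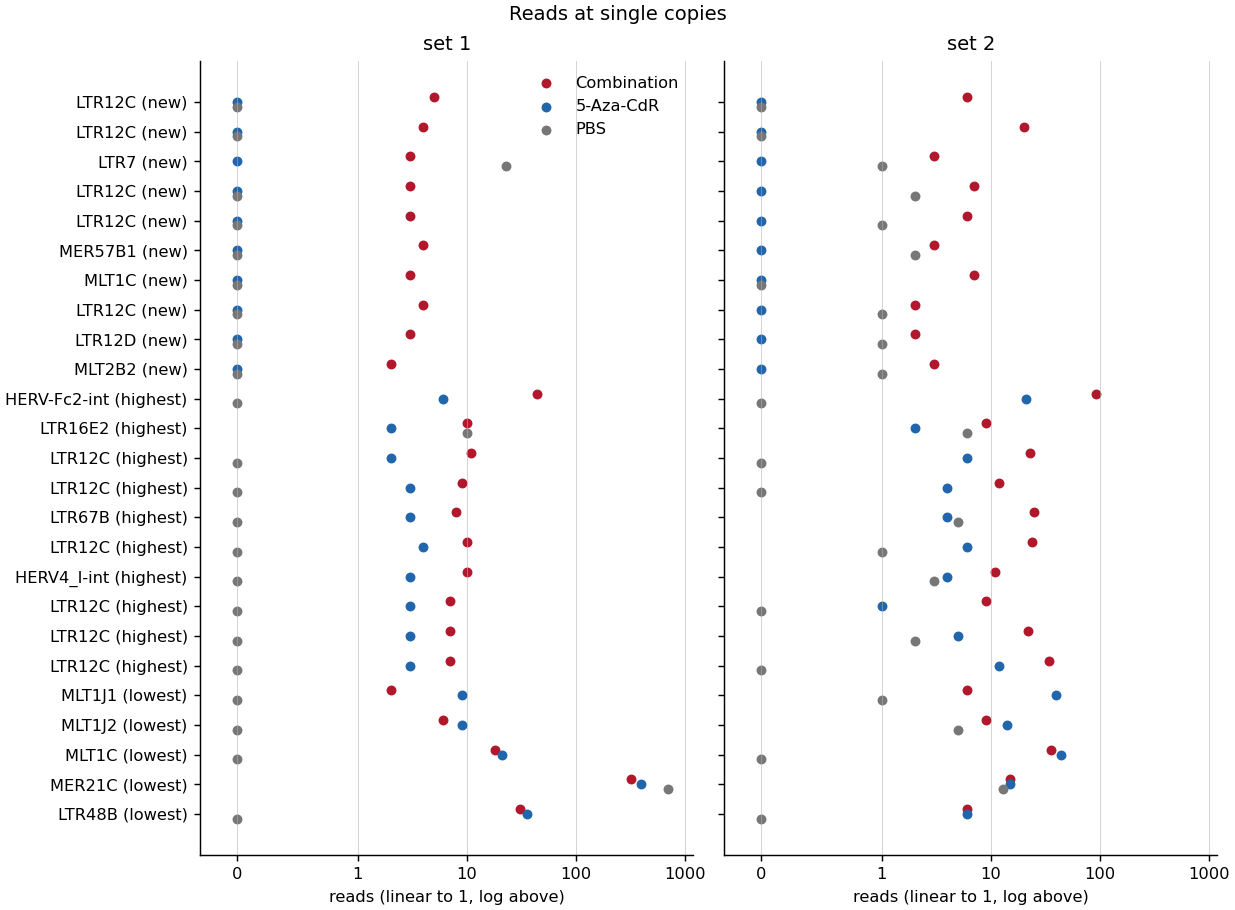
Reads per library (horizontal axis, linear to 1 and logarithmic above) at single copies in each set, for the 10 copies new in both sets, the 10 highest and the 5 lowest with at least 10 Combination and 5-Aza-CdR reads in each set. The 10 new copies hold 2 to 20 Combination reads; the HERV-Fc2-int copy has the most Combination reads among the 20 new and highest ones.

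HERV-Fc2-int, the internal region of a gammaretrovirus-like provirus group with few copies, came first when families that went one way in both sets were ranked by the smaller of their 2 log2 ratios. It had 48 reads in the Combination, 10 in 5-Aza-CdR and 0 in PBS of set 1. In set 2 it had 106 in the Combination, 27 in 5-Aza-CdR, 1 in Vc and 0 in PBS, so both Combination libraries lay above both 5-Aza-CdR libraries. Per family read the Combination was 3.87-fold 5-Aza-CdR in set 1 (1.93 to 8.57) and 2.85-fold in set 2 (1.85 to 4.53). In the joint fit of all 7 libraries by edgeR (quasi-likelihood test, treatment and set as terms) it stood 1.78 higher on the log2 scale (SE 0.42, interval 0.84 to 2.72) and did not pass (adjusted p = 0.618).

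A single provirus gave most of these reads. The copy at chrX:97096856-97104052 had 44 reads in the Combination, 6 in 5-Aza-CdR and 0 in PBS of set 1, and 93 in the Combination, 21 in 5-Aza-CdR and 0 in PBS of set 2. Both libraries of 5-Aza-CdR had already read it, so it is a copy with more reads rather than a new one, at 5.91-fold (2.51 to 16.98) and 3.21-fold (1.98 to 5.43) per locus read. The LTRs that flank it, HERV-Fc2_LTR at chrX:97096480-97096855 and chrX:97104053-97104422, had 4 and 2 Combination reads in set 1 and 1 and 1 in set 2, and 0 in 5-Aza-CdR and PBS. The joint fit of loci put the internal copy 1.94 higher (SE 0.91; adjusted p = 1 by edgeR's quasi-likelihood test). The same test in the 4 Combination and 5-Aza-CdR libraries alone put it 1.70 higher with an adjusted p of 6.9e-08, or 0.0018 with the HERVE_a-int and MER11B copies left out. These 4-library fits have 1 residual degree of freedom, so their p-values rest on a spread shared over loci. HERV-Fc1-int, of the sister group, had 9 Combination, 3 5-Aza-CdR and 0 PBS reads in set 1 and 36 Combination, 10 5-Aza-CdR and 0 PBS reads in set 2. Of these, its copy at chr7:64295616-64300190 had 6 Combination and 1 5-Aza-CdR read in set 1 and 21 Combination and 5 5-Aza-CdR reads in set 2, and no source used here says how reads were divided among near-identical copies. The HERV-Fc list together stood at 4.21 (2.31 to 8.31) and 2.44 (1.77 to 3.40) per family read. The internal copy on chromosome X held 44 of the 68 Combination reads of the list in set 1 and 93 of 171 in set 2. HERV-Fc1_LTR1 had 4 Combination and 0 5-Aza-CdR reads in set 1, and 12 and 3 in set 2. HERV-Fc1_LTR2 had 1 and 0 in set 1, and 15 and 11 in set 2, where its ratio was 0.990 (0.425 to 2.38).

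No family passed the joint fit. Of 352 families tested, 0 passed in edgeR's quasi-likelihood test after Benjamini-Hochberg adjustment (0% called), 9 had an unadjusted p below 0.05 (4 higher, 5 lower), and DESeq2 gave 0 with 2 unadjusted. Those 9 were HERV-Fc2-int, LOR1b (1.99), LTR12 (0.76) and LTR88b (1.49) on the higher side, and MER9a3 (-1.81), MER67B (-1.57), MLT1J1 (-0.76), MER65C (-1.24) and LTR86B1 (-2.21) on the lower, on the log2 scale. LTR88b, MER67B, MER65C and LTR86B1 were picked after their values were seen. The fit took its spread from all 7 libraries, including the PBS pair, with a biological coefficient of variation of 0.304. Without PBS of set 1, a library outside the contrast, that coefficient was 0.0841 and 11 families passed (6 higher, 5 lower), and without PBS of set 2 it was 0.0845 and 2 passed. HERV-Fc2-int and LTR12 passed in both of these fits. Each fit without a PBS library had 1 residual degree of freedom, so what passed there rests on little replication. The fit of the 4 libraries alone had a coefficient of 0.0817 and also 1 residual degree of freedom. In it 0 of 240 families passed, with 27 at an unadjusted p below 0.05.

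The LTR12 and HERV9 list, HERV-9 LTRs and their internal region, was higher in the Combination in both sets as a group. It held 24.1% of Combination and 18.5% of 5-Aza-CdR family reads in set 1, a ratio of 1.30 (1.23 to 1.38). In set 2 it held 31.2% of Combination and 25.2% of 5-Aza-CdR family reads, a ratio of 1.24 (1.20 to 1.28). In PBS it held 2.60% in set 1 and 5.69% in set 2. Among families with at least 20 Combination and 5-Aza-CdR reads in each set, 6 of 7 in the list were higher per family read in both sets, against 41 of 175 families (23.4%), and 0 were lower in both, against 59 (33.7%). The median joint log2 change was 0.42 over the 8 tested members and -0.00 over all 352 families. With the 58 loci read in 1 set left out, the list stood at 1.45 in set 1.

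Within the list LTR12C carried most reads. It had 2926 family reads in the Combination, 1807 in 5-Aza-CdR and 286 in PBS of set 1, and 8655 in the Combination, 5130 in 5-Aza-CdR and 851 in PBS of set 2. Its ratio was 1.30 (1.23 to 1.38) in set 1 and 1.23 (1.18 to 1.27) in set 2, with a joint log2 change of 0.42 (-0.61 to 1.46) whose interval covers 0. The smaller relative LTR12 stood at 1.25 (0.940 to 1.66) on 130 Combination and 84 5-Aza-CdR reads in set 1, and at 2.01 (1.59 to 2.57) on 269 Combination and 97 5-Aza-CdR reads in set 2. LTR12_ stood at 1.32 (0.902 to 1.96) in set 1 and 1.62 (1.21 to 2.19) in set 2. LTR12E stood at 1.85 (1.07 to 3.31) in set 1 and 1.10 (0.791 to 1.54) in set 2. All of these lay above 1 in both sets, as did LTR12D, at 1.33 (0.993 to 1.79) and 1.22 (1.04 to 1.42), and the internal region HERV9-int, at 1.17 (0.879 to 1.56) and 1.18 (1.01 to 1.38). LTR12F did not go the same way in both sets, at 1.45 (0.634 to 3.52) on 18 Combination and 10 5-Aza-CdR reads in set 1 and 0.642 (0.350 to 1.17) on 23 Combination and 26 5-Aza-CdR reads in set 2. LTR12B, at 1.21 (0.384 to 4.12) and 1.25 (0.723 to 2.23), had 9 Combination and 6 5-Aza-CdR reads in the first of the sets and 38 Combination and 22 5-Aza-CdR reads in the other.

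**Figure D5:**
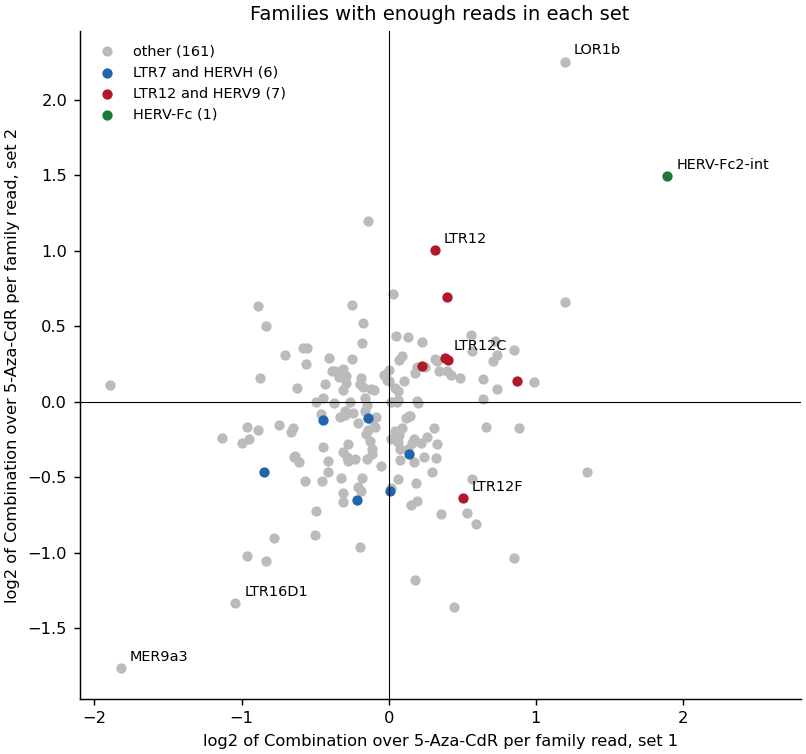
Log2 ratio of the Combination over 5-Aza-CdR per family read in set 1 (horizontal axis) and set 2 (vertical axis) for the 175 families with at least 20 reads of both libraries in each set; each point is a family. The LTR12 and HERV9 families lie above 0 in both sets except LTR12F, and HERV-Fc2-int lies at 1.90 and 1.49.

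The other retrovirus groups ranged from lower to higher in the Combination. LTR7 and HERVH, the HERV-H group, which includes transcripts known from pluripotent cells, had 503 Combination and 407 5-Aza-CdR reads in set 1 (ratio 0.995, 0.872 to 1.14) and 3008 Combination and 2767 5-Aza-CdR reads in set 2 (ratio 0.789, 0.749 to 0.832). Of its 6 families, 0 were higher in both sets and 4 lower. Over all 175 families with at least 20 reads in each set, 41 (23.4%) were higher in both sets and 59 (33.7%) lower. The LTR5 and HERVK list, 14 families of several HERV-K groups, stood at 0.826 (0.696 to 0.981) and 0.849 (0.773 to 0.932). The MLT1 elements of the MaLR group stood at 0.901 (0.853 to 0.951) and 0.960 (0.919 to 1.003), with 2 of 26 families higher and 14 lower in both sets. These lower values are shares of the counted repeat reads, which the larger LTR12 share lowers for all other families. With library sizes of the joint fit in set 2 HERV-H stood at 0.847 and MLT1 at 1.03. On that scale in set 1, HERV-H lay above 1 and MLT1 below it. The LTR5 and HERVK list lay below 1 in both sets on that scale. LTR17 and HERV17, the group of the syncytin-1 provirus, stood at 1.34 (0.938 to 1.94) in set 1 and 1.01 (0.815 to 1.25) in set 2, and LTR10 and HERVI at 1.26 (0.979 to 1.62) and 1.05 (0.944 to 1.17), both above 1 in both sets with intervals that cover 1. Both of the 2 families of the first and 1 of 5 of the second were higher in both sets, and 0 were lower in both. The 1 of 5 is near the 23.4% over all families. MLT2 and HERVL had 7 of 13 families higher and 0 lower in both sets, with ratios of 1.08 (0.962 to 1.21) and 1.06 (0.966 to 1.16). LTR48, at 0.879 (0.571 to 1.35) and 0.824 (0.517 to 1.32), had 48 Combination and 44 5-Aza-CdR reads in set 1 and 42 Combination and 37 5-Aza-CdR reads in set 2.

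The families at the ends of that ranking held few reads. Next to HERV-Fc2-int in it was LOR1b, whose joint log2 change, 1.99, was the larger of theirs, with 18 Combination, 6 5-Aza-CdR and 32 PBS reads in set 1 and 29 Combination, 4 5-Aza-CdR and 3 PBS reads in set 2. ERV3-16A3_LTR followed, with 18 Combination and 6 5-Aza-CdR reads in set 1 and 18 Combination and 8 5-Aza-CdR reads in set 2. The others among the 10 highest were LTR12, LTR12_, LTR16E2, LTR87, MLT2C2, HERVIP10FH-int and LTR5A, with joint log2 changes of 0.53 to 0.76. The lowest was MER9a3, an LTR of the HERV-K group, with 6 Combination and 18 5-Aza-CdR reads in set 1 (ratio 0.268) and 7 Combination and 18 5-Aza-CdR reads in set 2 (ratio 0.282). LTR16D1, LTR47A, LTR2, MLT1J1, LTR3, LTR41B, MER21C, LTR7Y and MSTD were the other 9, with joint log2 changes between -1.06 and -0.40. MER21C, the most read of them, had 441 Combination and 500 5-Aza-CdR reads in set 1 and 207 Combination and 248 5-Aza-CdR reads in set 2. In set 1, 320 of the Combination and 397 of the 5-Aza-CdR reads lay at the copy chr1:91852713-91852785.

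Of single loci, 0 of 409 with at least 30 reads over the 7 libraries passed the joint fit (0% called by edgeR's quasi-likelihood test; 7 at an unadjusted p below 0.05, 1 higher and 6 lower; DESeq2 0, with 1 unadjusted). Of the LTR12C loci, 74 of 104 (71.2%) had a positive log2 change, with a median of 0.33. This held for 198 of all 409 (48.4%, median -0.03). It held for 120 of 298 loci of the families outside the LTR12 and HERV9 group (40.3%, median -0.23). These shares are no test of LTR12C, since the filter of 30 reads counts the Combination libraries. In set 2 LTR12C had 8655 Combination and 5130 5-Aza-CdR reads, but 786 in Vc and 851 in PBS. LTR12C copies thus passed the filter mainly through the treated libraries, which favours those high in the Combination. Among 89 loci with at least 10 Combination and 5-Aza-CdR reads in each set, 44 (49.4%) were higher in both sets and 11 (12.4%) lower. LTR12C supplied 35 of 59 higher and 2 lower, and the families outside the group 9 of 28 higher and 9 lower. These counts are no test either. The filter of 10 reads counts the Combination reads that are then compared, which favours loci high in the Combination. Leaving out a PBS library gave 10 loci (set 1 left out; 1 higher, 9 lower) or 3 (set 2 left out; all lower), and the fit of the 4 libraries alone gave 12 of 204 (1 higher, 11 lower); the higher one in the first and last of these was the HERV-Fc2-int copy. Among the lower ones were the HERVE_a-int and MER11B copies named above, in all 3 fits, and the 2 LTR12C copies read in set 1 alone, in the first and last. With the HERVE_a-int and MER11B copies left out, an alternative added after seeing the data, 0 of 407 loci passed over all 7 libraries (7 at an unadjusted p below 0.05). Then 6 passed without PBS of set 1 (1 higher, 5 lower), 4 without PBS of set 2 (2 higher, 2 lower) and 8 of 202 in the 4 libraries alone (1 higher, 7 lower). The HERV-Fc2-int copy was higher, and the MLT1J1 copy on chromosome 12 and the LTR12C copy on chromosome 7 lower, in these 3 fits.

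Of the 5 loci with the most reads in both sets, 3 were LTR12C copies, with ratios between 0.927 and 1.53. The copy at chr1:175070212-175072001 had 46 Combination and 40 5-Aza-CdR reads in set 1 and 193 Combination and 142 5-Aza-CdR reads in set 2, at 0.927 (0.594 to 1.45) and 0.986 (0.790 to 1.23) per locus read. The copy at chr13:111473323-111474869 stood at 1.33 (0.811 to 2.20) and 1.12 (0.772 to 1.63), on 46 Combination and 28 5-Aza-CdR reads and on 77 Combination and 50 5-Aza-CdR reads. The copy at chr14:24053109-24054656 stood at 1.47 (0.865 to 2.57) and 1.53 (0.959 to 2.49), on 42 Combination and 23 5-Aza-CdR reads and on 59 Combination and 28 5-Aza-CdR reads. The LTR12C copies among the 10 highest ratios held fewer reads. The one with the highest ratio in set 1, at chr3:56725725-56727051, had 11 Combination and 2 5-Aza-CdR reads in set 1 (ratio 4.43, 0.968 to 41.2) and 23 Combination and 6 5-Aza-CdR reads in set 2 (ratio 2.78, 1.10 to 8.35). The copy at chr12:100952977-100954478 had 7 Combination and 3 5-Aza-CdR reads in set 1 and 34 Combination and 12 5-Aza-CdR reads in set 2. Both had 0 PBS reads in both sets.

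Copies with fewer reads in the Combination than in 5-Aza-CdR were found too. An MLT1J1 copy at chr12:112277524-112277914 had 2 Combination, 9 5-Aza-CdR and 0 PBS reads in set 1, a ratio of 0.179 (0.0188 to 0.866). In set 2 it had 6 Combination, 40 5-Aza-CdR, 13 Vc and 1 PBS read, a ratio of 0.109 (0.0377 to 0.258). Its joint log2 change was -3.03 (SE 1.14; adjusted p = 1 by edgeR), and -3.18 with an adjusted p of 3.4e-05 in the fit of the 4 libraries alone, which has 1 residual degree of freedom. A HERVK3-int copy at chr19:58817484-58821622, among the 5 with the most reads, had 35 Combination and 36 5-Aza-CdR reads in set 1 and 38 Combination and 61 5-Aza-CdR reads in set 2. The HERVH-int copy at chr1:68852826-68855367, also among these 5, went the other way and was higher in the Combination. It had 75 Combination, 32 5-Aza-CdR and 161 PBS reads in set 1, a ratio of 1.89 (1.234 to 2.955). In set 2 it had 176 Combination, 97 5-Aza-CdR and 169 PBS reads, a ratio of 1.32 (1.02 to 1.70).

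All ratios above are relative to the repeat reads of a library and cannot show a change in the total. For set 1 the authors' ratio sheet divides each family count by a tRNA number of the library, recovered here as 15946 for the Combination, 38200 for 5-Aza-CdR and 232558 for PBS. Family reads per tRNA read were 0.898 in the Combination, 0.302 in 5-Aza-CdR and 0.0995 in PBS, so that the Combination stood at 2.98-fold 5-Aza-CdR (2.90 to 3.05). By this scale LTR12C was 3.88-fold (3.66 to 4.12) and the families outside the LTR12 and HERV9 group 2.77-fold (2.69 to 2.85), both higher in the Combination. The tRNA number itself differed by 2.40-fold between 5-Aza-CdR and the Combination, and set 2, which gives none, was not scaled this way.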

How the data were processed

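Double-stranded RNA of HCT116 cells was counted over LTR repeats in 7 libraries. Family and locus sheets hold each read count as the authors deposited it, per the file headers, and a sheet of set 1 holds a ratio, the deposited family count divided by the tRNA number of its library, from which that number was recovered. Per the submitters' processing notes the build is hg19, and Bowtie2 and Picard served for set 2. Not given in the sources used here were the aligner of set 1, the tool that counted reads, the fate of marked duplicates and the handling of reads that fit several copies. Positions are 1-based.

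Loci were used where both sets list them; copies holding over 10% of a library's locus reads were left out, except in the joint fit of loci, where leaving them out was an added alternative. Expected loci at equal depth are exact hypergeometric values. The joint fit used edgeR 4.0.16 (quasi-likelihood, trimmed mean of M-values scaling, treatment plus set over 7 libraries, default filter for families, at least 30 reads for loci), with DESeq2 1.42.0 as an alternative in R 4.3.3, Benjamini-Hochberg adjustment and a threshold of 0.05. Ratios per read use exact conditional binomial intervals and shares Wilson intervals, at 95%. Log2 ratios had 0.5 added to each count. The scripts were tested on simulated data.

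The sets pair the libraries as the workbooks named in the labels do. Deviations from group means of same-set libraries correlated at 0.597 for the Combination with 5-Aza-CdR, over 352 families. The values were 0.424 for the Combination with PBS and 0.348 for 5-Aza-CdR with PBS. With 2 libraries per group, any difference shared by the libraries of a workbook raises such correlations, so they are no test of the pairing. Named families were all tested members of the LTR12 and HERV9, HERV-Fc and LTR48 lists and the 10 highest and 10 lowest with at least 20 reads per set and 1 direction; named loci were 10 new in both sets, 10 highest and 5 lowest with at least 10 reads per set, and the 5 most read. The comparison, members and lists were chosen with earlier results of these data known.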

Additional observations from a re-analysis of the deposited data

Results flagged for a closer look

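A MER11B copy at chr3:15779666-15780942 held 10.1% of Combination locus reads (Wilson interval 9.88 to 10.4) and 12.3% of 5-Aza-CdR locus reads (11.95 to 12.6) in set 1, against 2.43% in PBS (2.35 to 2.52). It stood out because the family sheet of set 1 does not list MER11B, so these reads, 5144 in the Combination, 4788 in 5-Aza-CdR and 3239 in PBS, enter none of the family comparisons, and it was left out of the locus comparisons at equal depth and per locus read as a dominating copy, though not of the joint fit of loci. In set 2 it had 87 reads in the Combination, 90 in 5-Aza-CdR and 87 in PBS. The HERVE_a-int copy at chr6:4428317-4428782, with 61.8% of Combination, 58.3% of 5-Aza-CdR and 80.3% of PBS locus reads in set 1, is likewise missing from the family counts, where HERVE_a-int is listed at 0 in all 3 libraries of set 1. No cause was tested.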

How the results depend on the processing

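In the joint fits the count of families past the threshold was 0 in the main fit and ran from 0 to 11 over the fits leaving out 1 library, and that of loci from 0 to 10; the fits above 0 were those without a PBS library. The 4 libraries alone gave 12 loci and 0 families. Without the HERVE_a-int and MER11B copies, 0 loci passed over all 7 libraries, 6 without PBS of set 1, 4 without PBS of set 2 and 8 in the 4 libraries alone. The sets were a block in the main fit, and with no replicate block 0 families (1 unadjusted) and 0 loci passed. The lower coefficient of variation of those fits is given above; the cause was not tested.

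Over all loci, the equal-depth ratio turned to 0.933 (at least 2 reads) and 0.994 (at least 3) in set 1, and to 1.02 and 1.03 in set 2, and without down-sampling was 1.23 and 1.19. For LTR12C in set 1 it moved to 1.62 (at least 3 reads) and 1.14 (equal LTR12C reads), and it stayed above 1 in all 14 LTR12C alternatives. New copies held 53.5% and 21.5% of Combination LTR12C reads where 1 read after 5-Aza-CdR counted as none. Over all loci, those read in the Combination alone in set 1 had a set 2 ratio of 1.12, and of 1.19 where at least 2 reads classed them. With LTR12C only, the ratios in set 2 were 1.26 (Combination alone), 1.21 (5-Aza-CdR alone), 1.22 (both) and 1.21 (neither). In set 1 they were 1.38 (Combination alone), 1.37 (5-Aza-CdR alone), 1.55 (both) and 0.645 (neither). The last value rested on LTR12C copies read in set 1 alone, as given above. With all loci kept, the class read in both, over all families, stood at 1.02 in set 1. The LTR12 and HERV9 ratio was 1.45 in set 1 without loci read in 1 set and 1.33 in set 2 with library sizes of the joint fit, by which internal regions turned to 1.01 in set 2.

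Named features with a reversed joint log2 change had these ranges over fits leaving out 1 library: HERV9-int -0.10 to 0.67, LTR12B -0.24 to 0.83, LTR12F -0.77 to 0.88, LTR16D1 -2.34 to 0.014, LTR48B -0.38 to 0.27, the LTR12C copy on chromosome 1 (start 175070212) -1.18 to 0.63 and that on chromosome 14 -0.66 to 1.70. The chromosome 1 copy was also at 0.018 with at least 10 reads, and that on chromosome 13 at -0.0017 in the 4 libraries. Without the HERVE_a-int and MER11B copies these were at 0.095 (also without PBS of set 2) and -0.10 (4 libraries). All other named features kept their direction. Depth limits single copies: most read loci held 1 read.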
